A study of Mus musculus with 2 samples.

Results

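Cytosolic ribosomal protein genes encode the proteins of the 2 subunits of the ribosome outside mitochondria. They were chosen by symbol: names that begin with Rpl or Rps and a number, the stalk genes Rplp0, Rplp1 and Rplp2, and Rpsa. Symbols marked as pseudogenes (-ps), the Rps6k kinases and Rps19bp genes were dropped. Of 85 rows left, 83 had at least 10 counts in 1 library or both, 50 of the large and 33 of the small subunit, among 12941 genes tested and 25509 rows that name a gene. The remaining rows, Rpl3l with 0 counts in shcircCsnk1g3 and 1 in shCTR, and Rpl10l with 0 in both, were at or under the floor of 3 counts and are not described further.

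The 2 libraries of poly(A) RNA compared were 1 of soft-tissue sarcoma cells transduced with shcircCsnk1g3, a hairpin against the circular RNA of Csnk1g3, and 1 of the same cells transduced with the control hairpin shCTR. Both came from C57BL/6 mesenchymal stem cells with p53 knocked out and Ccne1 overexpressed (p53-/-Ccne1+). These cells were grown as subcutaneous tumors in mice, seeded in the lungs of other mice, and taken from sarcoma foci there before the hairpins were introduced. The comparison asks which transcripts differ when the circular RNA is silenced. With 1 library per condition there was no replicate check and no test, and every difference below is between these libraries, not shown for the conditions.

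A ribosome is built from ribosomal RNA and about equal numbers of each ribosomal protein, and subunits that lack a protein are often degraded, so cells make these proteins in step. Their mRNAs are among the most abundant in growing cells. Many begin with a C followed by a run of pyrimidines (C or T), the 5′ terminal oligopyrimidine or TOP motif, through which the kinase mTOR and the protein Larp1 set how actively they are translated. This control acts on translation, which RNA-seq counts do not measure.

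The estimated counts summed to 38792143 in shcircCsnk1g3 and 42709996 in shCTR. Fold changes are shcircCsnk1g3 over shCTR on the log2 scale, from CPM, a count scaled to the size of its library, corrected by TMM, a factor per library that centres most genes on 0, with a prior count of 2 added. Each has a 95% Clopper-Pearson interval, given in brackets, that covers counting error only. Linear Csnk1g3, the host gene, had 2159 and 2411 counts, or -0.052 (-0.14 to 0.033). The circular RNA lacks a poly(A) tail and was not measured. Of 11 mesenchymal marker genes 10 were above the floor, with 11995 and 12595 CPM in all in shcircCsnk1g3 and shCTR. Of 11 leukocyte markers 7 were at 0 in both libraries and the list summed to 0.306 and 0.331 CPM. The 7 endothelial markers summed to 0.485 and 0.686 CPM with 3 at 0 in both, the 10 of lung epithelium to 2.78 and 1.70 CPM with 6 at 0 in both, and the 5 erythroid ones to 16.7 and 19.1 CPM with 2 at 0 in both. Of 5 rows listed as taking reads from ribosomal RNA 4 were measured, and they held 0.477% of counts in shcircCsnk1g3 and 0.154% in shCTR. Their part in the results below was not tested.

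The start of these transcripts can be read in RefSeq's promoter table (GRCm38.p6), which held 63 of the 83 genes. A strict TOP start, with C as the first transcribed base and C or T at each of the next 4, was found for 14 of the 63 (22.2%), and for 3.01% of all 27025 genes in that table. Examples follow because this feature is known for many of these genes and was not used to choose them. Each line gives 15 bases before and 15 from the start, with the pyrimidine run in capitals.
Rps6 (chr4:86857353-86857382, minus strand): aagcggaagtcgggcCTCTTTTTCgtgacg
Rps18 (chr17:33955651-33955680, minus strand): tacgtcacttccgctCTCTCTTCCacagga
Rpl15 (chr14:18270972-18271001, minus strand): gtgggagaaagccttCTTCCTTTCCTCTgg
Rpl35 (chr2:39005117-39005146, minus strand): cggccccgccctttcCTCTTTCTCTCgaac
Rpl28 (chr7:4792950-4792979, plus strand): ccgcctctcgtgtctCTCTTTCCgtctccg
Rps27 (chr3:90213634-90213663, minus strand): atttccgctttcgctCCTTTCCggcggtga
Rpl22l1 (chr3:28805493-28805522, plus strand): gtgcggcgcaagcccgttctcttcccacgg
In the table Rpl22l1, a paralog of Rpl22 described below, starts with G and has no such run at its start; a pyrimidine stretch lies 1 base further on.

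Members with and without a listed TOP start lay close together in these libraries. The 14 members with a strict TOP start had a median log2 fold change of -0.039, with 10 lower and 4 higher. The 49 with another listed start had a median of -0.059, with 35 lower and 14 higher, and the 20 that the table does not hold a median of -0.043. These medians are descriptions with no test. A strict match at the listed start can miss a run that begins further on, such as the stretch in Rpl22l1. The 49 are therefore not shown to lack a TOP motif, and the groups do not set TOP mRNAs against others.

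In the 250 bases before the start, the ETS motif CCGGAAG, in either strand, was present for 30.2% of the members in the table and for 7.83% of all its genes. The GC box GGGCGG was present for 50.8% and 35.4%. The YY1 motif GCCATCTT was present for 4.76% and 1.83%, and for 9.52% and 3.19% when the first 50 transcribed bases were searched too. A TATA box (TATAAA) starting 20 to 40 bases before the start was present for 1.59% of members and 2.41% of all genes. A match is a run of letters and not a site of binding.

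Together the 83 genes took 5.70% of all counts in shcircCsnk1g3 (2210214 counts) and 5.76% in shCTR (2458839 counts). The log2 fold change of the sum was -0.046 (-0.049 to -0.044), beside -0.031 for the sum over all tested genes. The large subunit genes held 3.42% and 3.45% of counts, and the small subunit genes 2.28% and 2.30%. The libraries thus gave nearly the same share of their reads to this gene family.

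Gene by gene, 59 members were lower and 24 higher in shcircCsnk1g3, with a median log2 fold change of -0.049. Among all tested genes 49.6% were lower and the median was 0.0023; among the 6987 genes that reached 2000 summed counts, as 82 of the members did, 51.9% were lower and the median was -0.0078. The direction of this split held under every scaling tried, but its size did not: with total counts in place of TMM 49 members were lower and 34 higher, against 44.0% of all genes lower, and after a correction for GC content and transcript length 48 were lower, 34 higher and 1 at 0, with a median of -0.015. In bulk RNA, less RNA per cell and fewer cells of a type cannot be told apart. These shifts are small, and with 1 library per condition nothing says how far repeat cultures would differ.

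Counting error is narrow at these depths. The median half-width of the intervals was 0.026 on the log2 scale. The interval lay below 0 for 49 members and above 0 for 17, and held 0 for 17. Among all tested genes it lay below 0 for 28.2% and above for 26.9%, and among genes of at least 2000 summed counts for 35.4% and 31.3%.

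Large differences were rare in the family. At 1.2-fold, 3 members were higher (Rpl39l, Rpl10 and Rpl22l1) where 15.7% of all tested genes and 7.13% of those with at least 2000 summed counts were, and 2 were lower (Rpl27 and Rps27rt) where 16.4% and 9.7% were. No member reached 2-fold in either direction, beside 2.13% of all genes 2-fold higher and 2.55% 2-fold lower. Among genes with at least 2000 summed counts these shares were only 0.186% and 0.358%, a background at which 0 members is no result about the family. Rpl39l was the nearest, at 0.998 on the log2 scale, and passed 2-fold with a prior count of 0.5, with total counts and with the GC and length correction. Within 0.1 of 0 on the log2 scale lay 55 members, and within 0.2 lay 75. The interquartile range of the 82 members with at least 2000 summed counts was 0.115 on the log2 scale, and that of all such genes 0.232. Their SD was 0.118 and 0.229. Beyond this minimum the sets were not matched in depth, and the median summed count of all members was 49372.

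**Figure D1:**
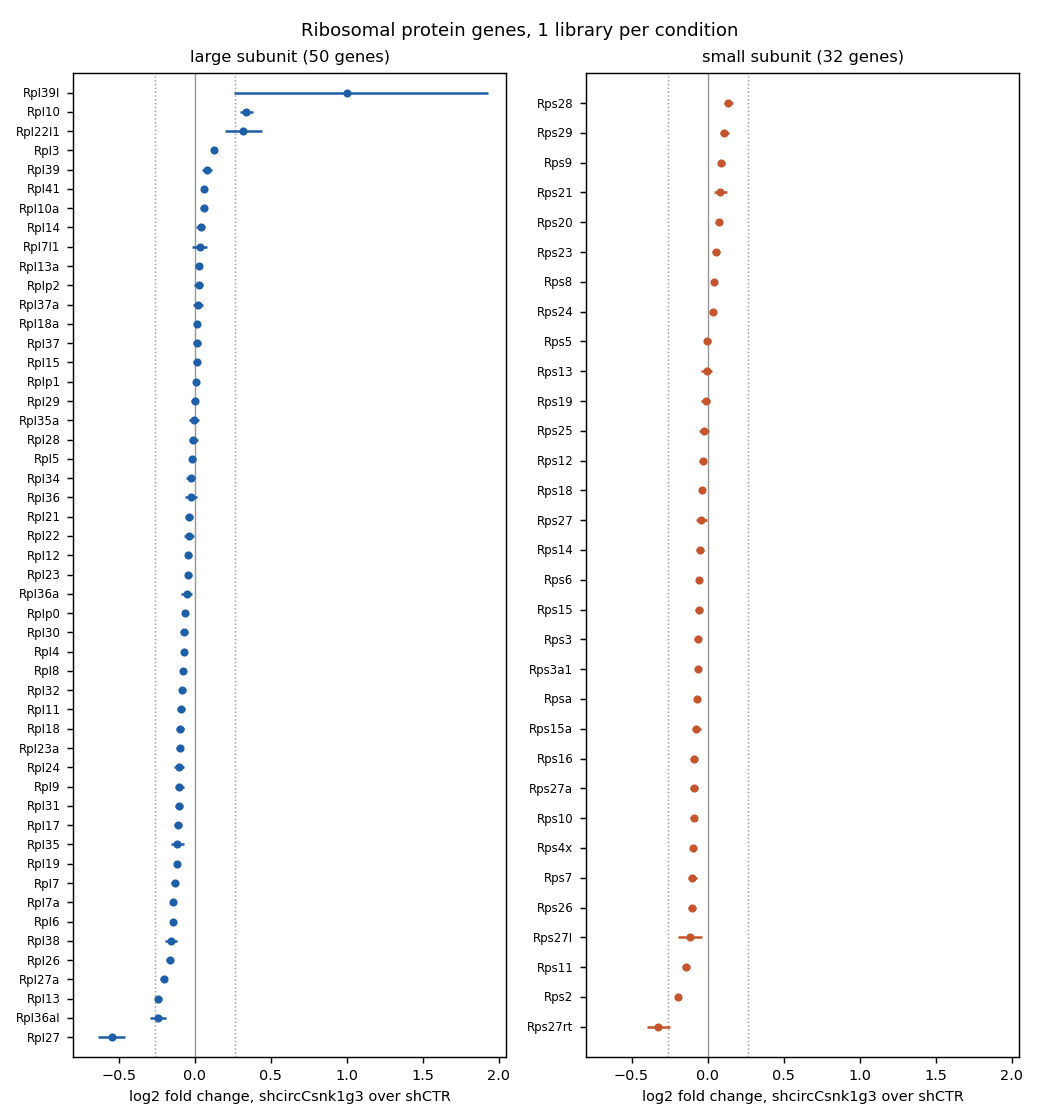
Log2 fold change of TMM-scaled CPM, shcircCsnk1g3 over shCTR, for each of the 50 large subunit genes (left, blue) and 32 of the 33 small subunit genes (right, red), in order of size. Points are the values, bars the 95% Clopper-Pearson intervals for counting error, and dotted lines mark a 1.2-fold difference; 5 points lie outside the dotted lines and the others stay close to 0.

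The levels themselves followed nearly the same order in both libraries. Measured as CPM per kilobase of the longest coding transcript, the level was highest for Rplp1, an acidic protein of the stalk that recruits elongation factors, at 2548 in shcircCsnk1g3 and 2532 in shCTR. Rps18, a protein of the small subunit head, had 1988 and 2038. Rps2, which lines the mRNA entry channel, had 1845 and 2112. Rpl41, whose product of 25 codons is among the shortest proteins known, had 1839 and 1766, and Rplp0, the base of the stalk, 1653 and 1725. Rps2 and Rps18 changed places between the libraries.

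At the low end stood genes that duplicate another member. Rpl39l had a level of 1.24 CPM per kilobase in shcircCsnk1g3 and 0.588 in shCTR, Rpl22l1 53.9 and 43.2, and Rpl7l1 63.5 and 62.1. The median level over the 82 members with at least 200 summed counts, as a mean of both libraries, was 683 CPM per kilobase. The quartiles were 466 and 976. Across the 82 members with at least 200 summed counts the levels in the 2 libraries correlated with r = 0.995, a description across genes that share both libraries. The highest was 52.3 times the lowest of these.

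The level depends on the length used. With the principal transcript of the annotation in place of the longest, the level of 12 of the 83 genes moved by over 1.5-fold. Rpl18 moved from a mean of 206 to 905 CPM per kilobase and from rank 73 to rank 30, Rpl15 from rank 60 to 23, and Rps15a from rank 79 to 57, since its longest annotated transcript has 5179 bases and its principal one 640. At the top, Rpl8 moved from rank 6 to rank 4 and Rplp0 from 5 to 6. With 200 bases taken off the principal length, 39 of the 83 levels differed by over 1.5-fold from those with the longest transcript. Rplp1 then had a mean of 4239 in place of 2540 CPM per kilobase. Rps2 fell from rank 3 to rank 5, behind Rpl41 and Rpl8, and Rplp0 to rank 13. Rplp1 and Rps18 had ranks 1 and 2 with each of these lengths. Rpl27, Rpl7l1, Rpl22l1 and Rpl39l had ranks 80 to 83, where Rpl7l1 and Rpl22l1 changed places with the shortened length. All levels use a member's own row and leave out reads assigned to copies, described below. The Rpl27 row held 1600 counts in shcircCsnk1g3 and 2518 in shCTR, and its copy Rpl27-ps3 held 13920 and 17398. Rpl10 also had fewer counts than its copy. How far the division of reads sets these ranks was not tested.

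**Figure D2:**
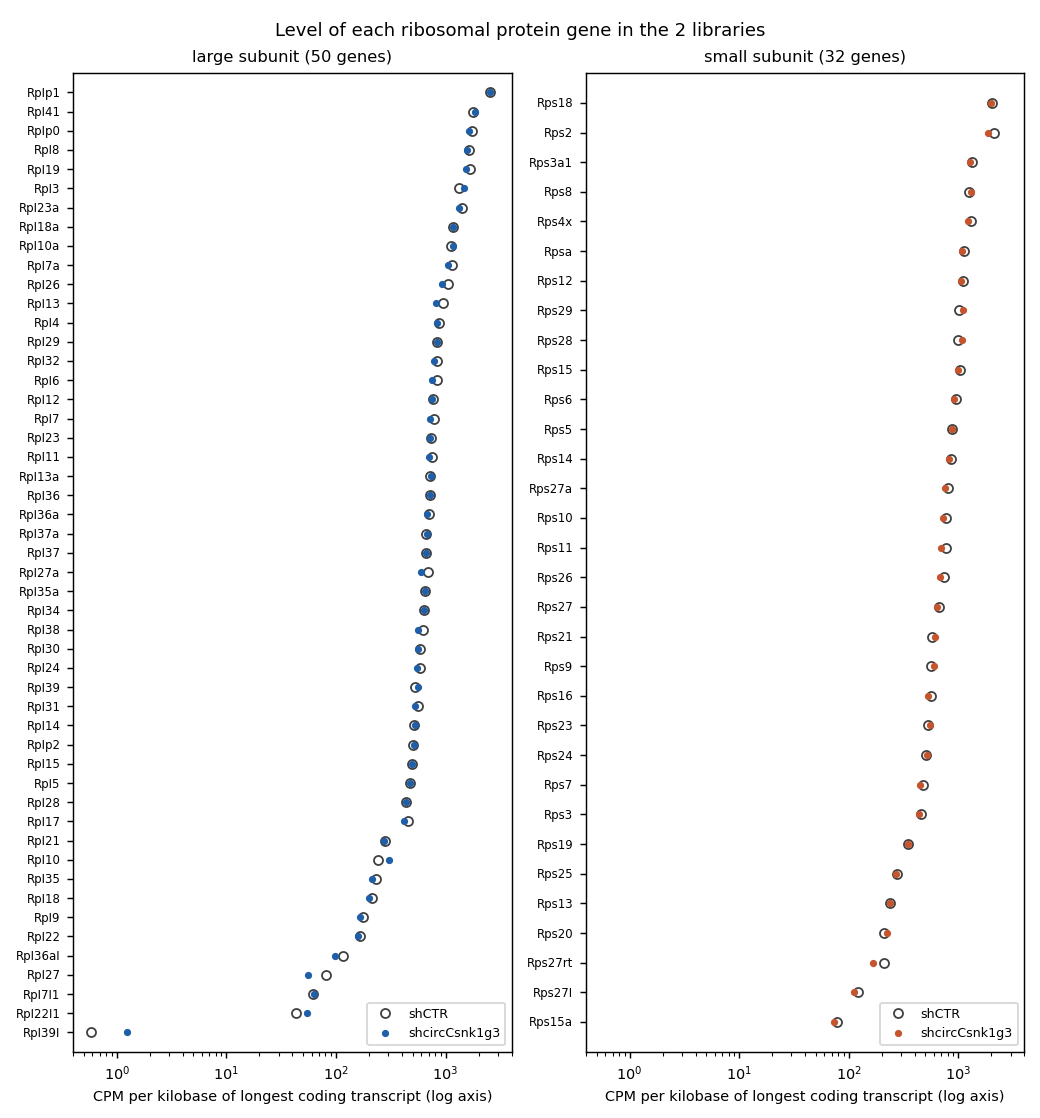
Level of each gene as CPM per kilobase of its longest coding transcript, on a log axis, in shCTR (open circles) and shcircCsnk1g3 (filled circles), for the 50 genes of the large subunit (left) and 32 of the 33 of the small subunit (right). The pairs of circles nearly coincide for most genes, from Rplp1, with a mean of 2540 over both libraries, down to Rpl39l with 0.912.

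Of the large subunit genes 34 were lower and 16 higher, with a median of -0.042, and of the small subunit genes 25 were lower and 8 higher, with a median of -0.056. The difference between the subunits was not tested, and it is smaller than the shift that a change of scaling gave. Roles within the subunits are taken in turn below, in lists that overlap.

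Of the 8 genes for proteins at the exit of the tunnel, where the nascent chain leaves the large subunit, 7 were lower. Their median was -0.11. Among all large subunit genes 68% were lower, and among all tested genes 49.6%. Rpl26 had 24058 counts in shcircCsnk1g3 and 29075 in shCTR (613 and 688 CPM), a log2 fold change of -0.17 (-0.19 to -0.14). Rpl19 had 45168 and 52748 counts, -0.12 (-0.13 to -0.10). The exception was Rpl39, whose small protein lines the tunnel wall, with 13427 and 13674 counts, 0.081 (0.047 to 0.12). The list's median was -0.077 with total counts and -0.052 after the GC and length correction.

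The stalk genes were spread on both sides of 0. Rplp0 had 88009 counts in shcircCsnk1g3 and 98980 in shCTR, -0.062 (-0.075 to -0.049). Rplp1 had 49862 and 53386, 0.0090 (-0.0086 to 0.027), and Rplp2 19524 and 20668, 0.025 (-0.0029 to 0.054). Rpl12, which sits at the foot of the stalk, had 36739 and 40725, -0.041 (-0.061 to -0.021). The median of the 4 was -0.016, and it was above 0 with total counts (0.015) and with the GC and length correction (0.025).

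Rpl5 and Rpl11 carry the 5S ribosomal RNA into the large subunit and, when unassembled, bind Mdm2, the ligase that degrades p53. Rpl5 had 37807 and 41158 counts, -0.015 (-0.035 to 0.0052), and was above 0 with total counts (0.016). Rpl11 had 23017 and 26355, -0.088 (-0.11 to -0.062). The cells are labelled p53-/-, and the Trp53 row still held 3841 and 4334 counts, which does not say whether a protein is made.

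In the small subunit, 11 of the 14 genes of the head were lower, with a median of -0.034 that was -0.0030 with total counts and -0.0043 after the GC and length correction. Of the 17 of the body 12 were lower, with a median of -0.056 that was -0.024 with total counts and 0.011 after the GC and length correction. Rps2, of the body, had 79167 counts in shcircCsnk1g3 and 97599 in shCTR, -0.19 (-0.21 to -0.18). On the other side, Rps28 and Rps29 of the head had 0.14 (0.11 to 0.17) and 0.11 (0.079 to 0.14), from 18638 and 18280 counts and 16709 and 16675 counts. Rps9 of the body, a protein that binds early to the ribosomal RNA, had 31867 and 32266 counts, 0.090 (0.067 to 0.11).

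Genes mutated in Diamond-Blackfan anemia, an inherited failure of red cell production caused by loss of 1 copy of a ribosomal protein gene, are spread over both subunits. The list used here holds 9 and is not complete. Of these, 8 were lower and 1 higher, beside 71.1% of the members and 49.6% of all genes lower. The median of the 9 was -0.088. The median was -0.057 with total counts and -0.021 after the GC and length correction. Rps19, the gene most often mutated, had 17339 counts in shcircCsnk1g3 and 18826 in shCTR, -0.011 (-0.041 to 0.019), and was above 0 under both of those alternatives (0.020 and 0.023). Rps7 had -0.10 (-0.13 to -0.071), Rps26 -0.10 (-0.13 to -0.073), Rps10 -0.092 (-0.12 to -0.067) and Rps24 0.033 (0.011 to 0.055). Rpl35a, with 13087 and 14136 counts, had -0.0037 (-0.038 to 0.031), and its sign was positive under both alternatives.

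Among the large subunit genes that belong to none of these roles, Rpl13 had 24785 counts in shcircCsnk1g3 and 31530 in shCTR (632 and 746 CPM), -0.24 (-0.26 to -0.22). Rpl27a had 27253 and 33791 counts (695 and 800 CPM), -0.20 (-0.23 to -0.18). Rpl3, which helps shape the peptidyl transferase centre, stood on the other side with 77508 and 76458 counts (1976 and 1810 CPM), 0.13 (0.11 to 0.14). The intervals of all 3 stayed clear of 0, and each difference was under 1.2-fold.

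Paralogs of members can replace them in the ribosomes of some tissues. They were the most variable group, though Rpl39l rests on few counts. Of 9 listed, 6 were tested, 3 higher and 3 lower. Rpl22l1, at chr3:28805436-28807424 on the plus strand, had 1167 counts in shcircCsnk1g3 and 1008 in shCTR (29.8 and 23.9 CPM), 0.32 (0.20 to 0.44). Its coding sequence was 68.2% identical to that of Rpl22, which had 12911 and 14289 counts and -0.039 (-0.073 to -0.0043). Rpl36al had 4935 and 6294 counts (126 and 149 CPM), -0.24 (-0.30 to -0.19), while Rpl36a, 87.9% identical in coding sequence, had 12864 and 14379 counts and -0.053 (-0.088 to -0.019). Rpl22l1 thus had a higher and Rpl36al a lower fold change than its partner.

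Rps27l, known as a p53 target, had 2535 and 2959 counts, -0.12 (-0.19 to -0.039), and Rpl7l1 6489 and 6836 counts, 0.032 (-0.017 to 0.082), which was -0.0064 after the GC and length correction. Rpl39l, known from testis, had only 39 counts in shcircCsnk1g3 and 20 in shCTR (0.995 and 0.473 CPM). On the log2 scale the difference was 0.998, with a counting interval from 0.26 to 1.93, the widest among the members. No 50-base window of its transcript is shared with another gene, and the difference from Rpl39 is visible in the first 90 coding bases, where 10 bases differ (capitals).
Rpl39: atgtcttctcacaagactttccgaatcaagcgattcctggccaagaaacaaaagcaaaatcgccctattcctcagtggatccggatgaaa
Rpl39l: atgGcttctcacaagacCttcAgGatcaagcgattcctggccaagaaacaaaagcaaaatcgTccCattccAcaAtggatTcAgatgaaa

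Ribosomal protein mRNAs have been copied back into the genome many times, and many copies are near-identical to the source gene. The program used for counting, RSEM, divides a read that fits several genes among them by an estimate, so a single row can move while the sum over the copies does not. Cut into 50-base windows, 47 of the 83 transcripts shared no window with another row of the table and 23 shared at least 30%. Against all genes of the annotation (GENCODE M21), whether counted in the table or not, 42 shared 50% of their windows or more.

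This bears on 4 of the 5 members beyond 1.2-fold. Of the transcript of Rpl22l1, 57.3% of windows were shared with genes of the annotation but none with another row of the table, so no sum could be made for it. The other 3 share windows with rows of the table. Rpl10, at chrX:74270812-74273135 on the plus strand, had 10195 counts in shcircCsnk1g3 and 8677 in shCTR (260 and 205 CPM), 0.34 (0.30 to 0.38). Rpl10-ps3, a copy on chromosome 9 that the annotation lists as protein-coding, had 35165 and 40864 counts, more than Rpl10 itself. The transcripts were identical over 740 aligned bases, all 645 of the coding sequence included, and 92.1% of the windows of Rpl10 were shared. The first 90 coding bases are printed because a read that lies within them fits both genes equally.
Rpl10: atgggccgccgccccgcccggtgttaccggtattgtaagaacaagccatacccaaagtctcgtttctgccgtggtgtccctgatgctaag
Rpl10-ps3: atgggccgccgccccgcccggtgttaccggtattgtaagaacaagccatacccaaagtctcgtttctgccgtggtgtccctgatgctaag
Summed, the rows held 45360 and 49541 counts, with -0.020 (-0.038 to -0.0013). With TMM the Rpl10 row alone and the sum of both rows thus differed in direction, though the sum lay within the shift that total counts gave.

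Rps27 and Rps27rt, a copy without introns, are another such pair. Their coding sequences of 255 bases were identical, while that of Rps27l was 76.1% identical to Rps27 and differed at 24 of the first 90 bases (capitals).
Rps27: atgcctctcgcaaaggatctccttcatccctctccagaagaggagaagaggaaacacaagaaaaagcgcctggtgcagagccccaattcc
Rps27rt: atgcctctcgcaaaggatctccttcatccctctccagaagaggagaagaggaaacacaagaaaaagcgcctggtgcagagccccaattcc
Rps27l: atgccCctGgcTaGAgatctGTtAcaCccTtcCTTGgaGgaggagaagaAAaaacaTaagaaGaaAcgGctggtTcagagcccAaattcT
Rps27 had 11498 counts in shcircCsnk1g3 and 12756 in shCTR, -0.042 (-0.079 to -0.0058), and Rps27rt 2456 and 3314, -0.32 (-0.40 to -0.25). Their sum of 13954 and 16070 counts had a log2 fold change of -0.10 (-0.13 to -0.063).

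Rpl27 had the lowest value of all members, with 1600 counts in shcircCsnk1g3 and 2518 in shCTR (40.8 and 59.6 CPM), -0.55 (-0.64 to -0.46). The row Rpl27-ps3 held 13920 and 17398 counts, and over its whole length of 411 bases it was identical to the Rpl27 transcript. The sum of 15520 and 19916 counts had -0.25 (-0.28 to -0.22), still the lowest of the members when all of them were summed in this way, and no longer past 1.2-fold.

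For the other members that share sequence the sums differed less from the single rows. Rps2 with its copies moved from -0.19 to -0.17, Rpl35 with Gm2000 from -0.11 to -0.17 (14233 and 17275 counts), and Rps7 with Gm9493 from -0.10 to -0.078. After all such sums, with Rps27 and Rps27rt counted as 1, 59 of 82 members were lower, the median was -0.051, Rpl39l and Rpl22l1 were at least 1.2-fold higher, and no member was as much lower. The 17 pseudogene rows named for ribosomal proteins held 0.198% of counts in shcircCsnk1g3 and 0.210% in shCTR.

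**Figure D3:**
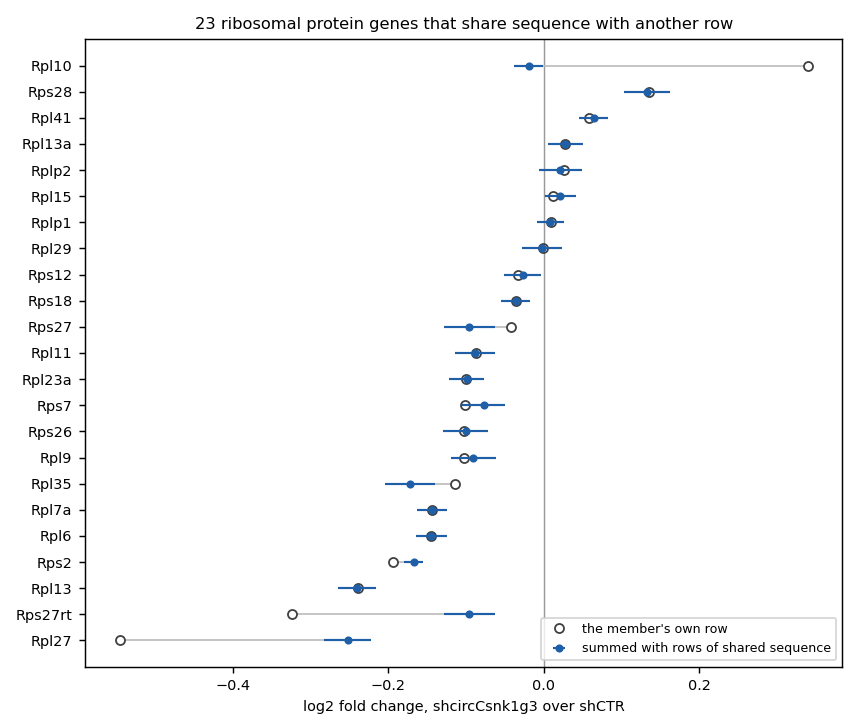
Log2 fold change, shcircCsnk1g3 over shCTR, of the 23 members that share at least 30% of their 50-base windows with another row: the member's own row (open circles) and its sum with those rows (filled circles, bars for the 95% interval of counting error). Rpl10 moves from 0.34 to -0.020, Rps27rt from -0.32 to -0.10 and Rpl27 from -0.55 to -0.25, while most others hardly move.

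Over the 82 members with at least 200 summed counts, the log2 fold change correlated weakly with length, GC content and level. Pearson's r was 0.0044 with the log2 length of the longest coding transcript and -0.16 with GC content. It was 0.065 with the log2 mean CPM and -0.14 with the share of windows found in other rows. The GC and length correction, made over all tested genes, still moved the members' median from -0.049 to -0.015. These correlations are across genes of the same 2 libraries, which are no independent replicates.

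Genes that work with the ribosome were read in the same way. Fau encodes a ribosomal protein fused to a ubiquitin-like protein, under a symbol that the choice of members does not reach. Fau had 5253 counts in shcircCsnk1g3 and 6260 in shCTR, -0.15 (-0.20 to -0.092). Rps27a, a fusion with ubiquitin that is among the members, had -0.091 (-0.12 to -0.065). The value of Fau lay between the lowest of the members, -0.55 for Rpl27, and their lower quartile of -0.10.

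Elongation factors and other genes known for TOP mRNAs gave 14 lower and 8 higher of 22, with a median of -0.023 that was 0.0082 with total counts. None was past 1.2-fold, beside 15.7% of all genes higher and 16.4% lower, and 7.13% and 9.7% of those with at least 2000 summed counts. The 5 eukaryotic elongation factors listed lay between -0.15 and -0.0046, and those nearest 0 were within the shift that total counts gave. Eef1a1, the most abundant of them, had 377519 and 409984 counts and -0.011, and Eef1g 36403 and 43426 counts and -0.15. Pabpc1, the poly(A)-binding protein, had 75016 and 90441 counts, -0.16 (-0.18 to -0.15), and Hnrnpa1, a splicing factor, 46687 and 43217, 0.22 (0.20 to 0.24).

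Of 29 initiation factor genes 16 were lower and 13 higher, with a median of -0.016 (0.015 with total counts). Eif3i, a subunit of the scaffold factor eIF3, had 7257 and 9014 counts, -0.21 (-0.25 to -0.16), and Eif4ebp1, a repressor of cap-dependent initiation that mTOR phosphorylates, 16863 and 15155, 0.26 (0.23 to 0.29). This was just under 1.2-fold, and past it in the authors' own scaled CPM (0.263) and with total counts (0.293). Of 18 genes of mTOR signalling and the S6 kinases, 9 were lower and 9 higher, with a median of 0.0040 that was -0.017 after the GC and length correction. Rheb, the activator of mTOR complex 1, had 3124 and 2821 counts, 0.25 (0.18 to 0.33), and Deptor, an mTOR inhibitor, 481 and 609, -0.23 (-0.41 to -0.058). The 1 gene of this list past 1.2-fold lower, Rps6ka1 (5.56% of the list, beside 16.4% of all genes), had only 8 and 16 counts. Rheb passed 1.2-fold with total counts (0.286) and Deptor after the GC and length correction (-0.264).

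Ribosome assembly and RNA polymerase I genes were spread more widely than the members, with an interquartile range of 0.241 on the log2 scale beside 0.115. The 2 sets were not matched in depth. Of 52, 29 were lower and 23 higher, with a median of -0.031 that was 0.00010 with total counts. Past 1.2-fold, 4 were lower (7.69%, beside 16.4% of all genes and 9.7% of those with at least 2000 summed counts) and 1 was higher (1.92%, beside 15.7% and 7.13%). The 4 were Bop1, of the PeBoW complex that matures the large subunit RNA, with 5599 counts in shcircCsnk1g3 and 7875 in shCTR, -0.38 (-0.43 to -0.33), and Nhp2, Nop10 and Rrp9, proteins of small nucleolar ribonucleoproteins that modify or cut ribosomal RNA. Taf1a, a subunit of the polymerase I selectivity factor, was the 1 as much higher, with 479 and 423 counts, 0.29 (0.10 to 0.48).

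The 77 genes of the mitochondrial ribosome, which translates the mRNAs of the mitochondrial genome, had 51 lower and 26 higher and a median of -0.065, which was -0.034 with total counts and -0.037 after the GC and length correction. Past 1.2-fold, 8 were lower (10.4%, beside 16.4% of all genes and 9.7% of those with at least 2000 summed counts) and 1 was higher (1.30%, beside 15.7% and 7.13%). Mrpl51 had 1864 and 2671 counts, -0.41 (-0.50 to -0.33), and Mrpl46 559 and 475, 0.34 (0.16 to 0.52). The cytosolic and the mitochondrial proteins thus had medians of similar size on the same side of 0, with a wider spread in the mitochondrial list, and the difference between them was not tested.

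**Figure D4:**
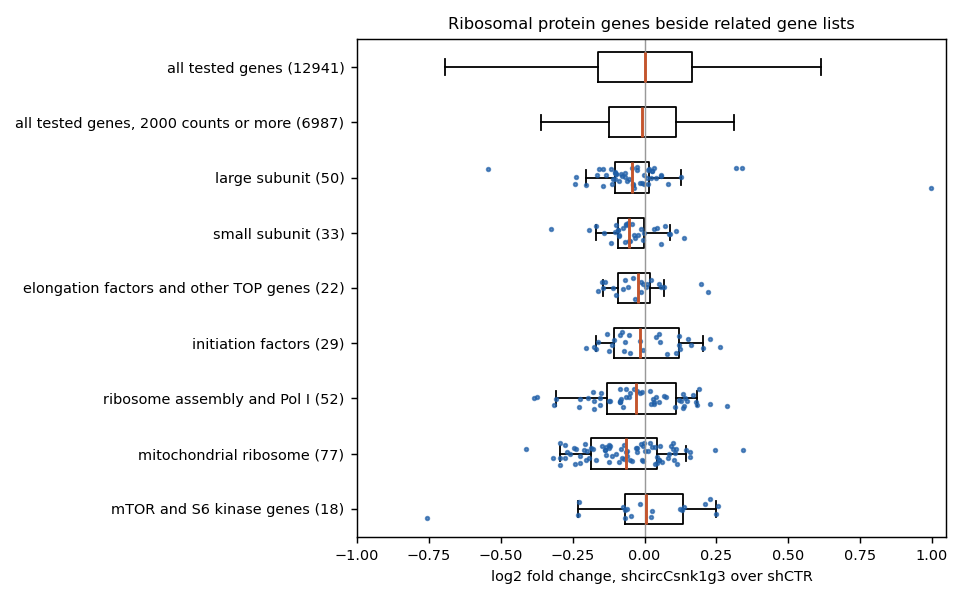
Log2 fold change, shcircCsnk1g3 over shCTR, of all tested genes, those with at least 2000 summed counts, the 2 subunits and related lists, with the number of genes in brackets. Boxes span the interquartile range, red lines are medians, whiskers reach the 5th and 95th percentiles and points are single genes; the boxes of the 2 subunits are narrower than those of all genes and centred slightly below 0.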

How the data were processed

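RNA was sequenced as stranded poly(A) libraries (TruSeq Stranded mRNA), 1 per condition. According to the methods the authors aligned reads to GRCm38 with STAR and summarised them with RSEM. The authors deposited estimated counts per gene as whole numbers, so no rounding was needed, and a second table of TMM-scaled CPM made with edgeR, which holds 82 of the members. The GENCODE release is not given in the sources used here. The 92 spike-in rows were 0 and left out. Authors' comparison columns were not part of these tables.

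The TMM factors were computed by edgeR 4.0.16 under R 4.3.3 from the genes that reached 10 counts in a library. Fold changes, exact Clopper-Pearson intervals (95%) and the floor of 3 counts used python 3.11.15, numpy 2.4.6, pandas 2.3.3 and scipy 1.17.1; they cover counting error only, since reads without molecular identifiers are not independent molecules. The steps were tested on simulated counts. Figures used matplotlib 3.10.9. Coordinates, lengths, coding sequences and 50-base windows came from GENCODE M21 (GRCm38), which held 25251 of 25509 identifiers, and transcript starts from RefSeq. Alignments used biopython 1.88.

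The members, gene lists and alternatives were chosen with earlier results of these data known. Genes named are the 6 highest and 6 lowest fold changes and the levels at both ends among members of at least 200 summed counts, all members of the paralog, stalk, 5S and Diamond-Blackfan lists, members under 200 counts, the extreme genes of each related list, and Fau. Results for 2 genes under this rule are not reported here. Others were named after their values were seen, as examples of a role or of shared sequence. Alternatives were the size factors of DESeq2 1.42.0, the plain library totals (total counts), TMM without the members, prior counts of 0.5 and 10, the deposited CPM, other count minimums, sums with copies, a subtraction of the median of genes in the same GC and length deciles, members without paralogs, and thresholds of 1.1-fold and 1.5-fold. The sums over rows of shared sequence, the minimum of 2000 summed counts and the other lengths were added after seeing the data.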

Additional observations from a re-analysis of the deposited data

How the results depend on the processing

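The median log2 fold change of the members (-0.0492) and of both subunits stayed below 0 under all alternatives run. With total counts in place of TMM the median was -0.0180, the log2 fold change of the sum -0.0150, the large subunit's median -0.0110 and the small subunit's -0.0243. After the GC and length correction, which shifts each gene by the median of its decile, the members' median was -0.0149 and the small subunit's -0.00856; the summed counts have no value there. The number at least 1.2-fold higher (3) was 1 without the paralogs and 1 at 1.5-fold. The number as much lower (2) was 1 with the named pseudogene rows added, 0 with all rows of shared sequence added, 1 without the paralogs, 12 at 1.1-fold and 0 at 1.5-fold. Rpl39l passed 2-fold, making that count 1 in place of 0, with total counts, a prior count of 0.5 and the GC and length correction. With TMM, the log2 fold change of Rpl10 reversed from 0.34 to -0.0197 on addition of Rpl10-ps3, a value within the shift that total counts gave. Of 575 values of 42 named genes under these alternatives, 522 lay within the gene's counting interval. Part of this count was fixed in advance. Other count minimums and leaving out the paralogs do not alter a gene's value, nor do sums for a gene without copies. The count is therefore no measure of robustness.

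No paired analysis was possible because each condition has 1 library, and for the same reason none was left out. Depth limits Rpl39l. The other members are limited by the lack of replicates, the division of reads among copies, and a scaling choice that moves the median of all genes from 0.00226 to 0.0334.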
